A study of Sus scrofa with 12 samples.

Results

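The RAB proteins are small GTPases that give each membrane compartment of a cell its identity. Loaded with GTP by an exchange factor, a RAB sits on its membrane through a prenyl tail and recruits effectors such as tethers, motors and lipid kinases. A GTPase-activating protein then returns it to the GDP form, which is taken off the membrane and carried through the cytosol by GDP dissociation inhibitors. In oocytes RAB proteins are known for the exocytosis of cortical granules and for the recycling vesicles that travel with the actin network around the meiotic spindle.

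The members were every gene whose pig symbol is RAB followed by a digit and at most 3 further characters, with 3 symbols that fit these letters but name interacting proteins (RAB3IP, RAB3IL1 and RAB5IF) left out. This gave 51 RAB genes of the 31908 gene identifiers measured, of which 15029 were named by the annotation. Another 8 RAB symbols of the annotation (RAB1B, RAB5B, RAB18, RAB21, RAB24, RAB32, RAB36 and RAB40B) were paired with no identifier by that annotation and are not analysed here. RNA was measured in porcine (Sus scrofa) oocytes that had been matured in vitro inside their cumulus complexes and stripped of cumulus cells. There were 12 libraries, 4 each from 0h (immature oocytes with an intact nucleus, the GV stage), 22h (before metaphase I) and 46h (metaphase II). The labels name no treatment other than the time of maturation. By the study's methods the maturation medium held porcine follicular fluid, EGF, PMSG and HCG. The effects of time and of exposure to this medium cannot be told apart. The stage names rest on an earlier count by the authors at the same or nearby times, in which most oocytes, but not all, had reached them. By the study's methods the ovaries came from prepubertal gilts, and each library was a pool of the same number of oocytes amplified from an oligo-dT primer by SMART-Seq2. A change in the amount of a transcript and a change in its poly(A) tail therefore cannot be told apart, and a change in the RNA content of the oocytes does not show in values set relative to the library total. No source ties the 4 libraries of a stage to separate animals or cultures, so the p-values measure the spread between these libraries.

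Levels are given as FPKM, fragments scaled to the length of the transcript and to the mapped fragments of the library, and depth is unknown because no read counts were used. All 13 oocyte markers matched in the files, among them GDF9, ZP3 and BTG4, were above 0 in all 12 libraries, with a summed level of 28400 to 39800 FPKM, of which BTG4 held the most. At 46h against 0h 9 of the 13 were lower and 1 (BTG4, not called with quantile normalization) higher, beside 39.1% and 16.8% of all genes, with GDF9 falling from 984 ± 548 to 37.8 ± 3.73 FPKM (SD, n = 4, adjusted p = 2.71e-06 by limma). Among those lower, DDX4 (means of 2.12, 0.958 and 0.688 FPKM at 0h, 22h and 46h) averaged 1 FPKM or more only through its 0h libraries, where it is high. Its test is therefore no independent sign of a fall. Of 16 cumulus and granulosa cell markers, 4 (AMHR2, INHA, LHCGR and NR5A1) were listed at 0 throughout. The summed level of those 16 was 46.2 to 88.6 FPKM for 0h, 55.6 to 86.1 for 22h and 118 to 143 for 46h, most of it VCAN, without which the sums were 5.77 to 17.2, 6.46 to 8.24 and 7.19 to 13.0 FPKM. The 17.2 came from 0h replicate 4, where VCAN was at 29.01 of 46.2 FPKM. The part of these markers in the RAB values was not tested. The library 0h replicate 4 stood apart: on the log2(FPKM + 1) scale it correlated at 0.934 to 0.97 (Pearson's r across genes) with the other 3 libraries of its stage, which correlated at 0.979 to 0.988 with each other. Among the 25 RAB genes tested it held the highest 0h value of 12 and the lowest of 7, whereas 0h replicate 2 held the lowest of 11 and 0h replicate 1 the highest of 8. Results against 0h are therefore also given without it where the call changes, and for some others.

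The feature that ties RAB proteins to membranes is the cysteine pair near their end, and it was read from the coding sequences of RefSeq (Sscrofa11.1), in which all 51 members were found. Among the last 5 codons before the stop, 42 members (82.4%) had 2 cysteine codons, 8 had 1 and 1 (RAB37) had none, against 1.12% of the 5693 tested genes with a RefSeq transcript that had 2 or more. These counts rest on 1 RefSeq model per gene, and the ends of other models were not read. The model of RAB37 had 906 coding bases. That of RAB3D, among the 8, had 561, against 660 to 684 for RAB3A, RAB3B and RAB3C. The last 30 bases of the coding strand, stop codon included, are shown for some members called in at least 1 comparison, RAB11A as the most abundant among them, and for RAB5A, whose level is set beside that of RAB5C, with cysteine codons in capitals:
RAB11A (chr1:163887712-163887741, plus strand): ccaaaggtgcagTGCTGTcagaacatataa
RAB9A (chrX:10348898-10348927, plus strand): aagcccaagcccagctcctcgTGCTGTtga
RAB7A (chr13:71778739-71778768, minus strand): aagcccccggcggaaaccTGCagtTGCtga
RAB5C (chr12:20635119-20635148, plus strand): gccagccggagccagTGCTGCagcaactga
RAB5A (chr13:6938808-6938837, plus strand): ccaaccaggagtcagTGTTGTagtaactaa
RAB30 (chr9:17129691-17129720, minus strand): agctatttgactTGTTGTaatttcaactga
RAB8B (chr1:108777037-108777066, minus strand): gccagtttcttccgtTGTttgctactttga
RAB28 (chr8:9034360-9034389, minus strand): gctcagagtaggatcTGTtcagtacagtag

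RAB8B and RAB28 in that set have 1 cysteine codon, set 4 codons before the stop, whereas the others have 2. The coding sequences of same-numbered members such as RAB5A and RAB5C were 62.7% to 82.2% identical, and the longest run of identical bases in any of the 17 pairs was 29. The highest identities, 82.2% and 81.5%, were of pairs with the short RAB3D model of 561 bases. Pairs without RAB3D reached 78.8%.

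Since maturing oocytes rest on stored RNA, the end of each transcript was also searched for the cytoplasmic polyadenylation element (TTTTAT or TTTTAAT) and the polyadenylation hexamer (AATAAA or ATTAAA), on the transcript strand only and within the last 100 bases of the RefSeq model. The element stood in 6 of 23 tested RAB genes with a long enough 3′ UTR (26.1%), against 22.9% of 5370 tested genes, and the hexamer in 19 of 23 (82.6%) against 79.5%. The RefSeq models of RAB11A and RAB1A hold no 3′ UTR and were not searched. Windows of 30 bases are shown for 3 members whose levels changed, with the element in capitals:
RAB9A (chrX:10349300-10349329, plus strand): atTTTTATgtaattagcattctgtccctgg
RAB8B (chr1:108772903-108772932, minus strand): agaaaaaatgaaTTTTATtccaggtgaact
RAB6A (chr9:8137958-8137987, minus strand): ttgactcttttgTTTTATtttgacatggca

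The family was uneven in level. Of the 51 members, 25 averaged 1 FPKM or more across the 12 libraries and entered the test, 20 were under this filter but above 0 in some library, and 6 were listed at 0 in all 12. RAB11A, which directs traffic through the recycling endosome, alone made up 69.3% to 80.7% of the summed RAB level at 0h, with a range of 73.4% to 74.7% at 22h, and of 72.3% to 75.7% at 46h. It ranked between 42 and 86 among all identifiers in every library. The whole family held 0.214% to 0.439% of all FPKM at 0h, between 0.298% and 0.377% at 22h, and between 0.196% and 0.231% at 46h, and the lowest of the 0h values came from 0h replicate 4. After RAB11A the order by mean level was RAB2A (92.8 FPKM), RAB6A (79.5), RAB1A (70.6), RAB10 (54.9), RAB8B (43.1) and RAB28 (43.0). From RAB2A to RAB28 each member overlapped the next one in its range over the libraries. Within libraries, RAB1A lay above RAB10 in every one, as did RAB11A above RAB2A. The other neighbours changed order between libraries, so that their order is not clear. In all, 13 members had a mean of at least 10 FPKM and 11 of the 25 tested had a mean under 5 FPKM.

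**Figure D1:**
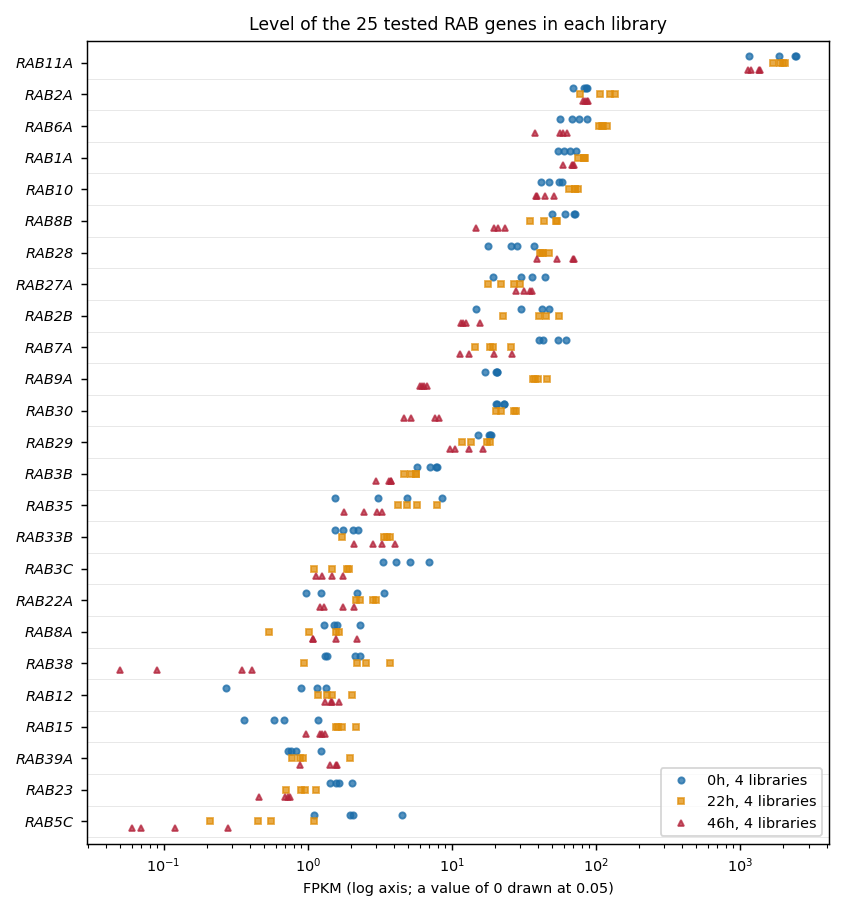
FPKM of the 25 tested RAB genes in each of the 12 libraries on a log axis, ordered by mean, with 1 point per library and 4 libraries per stage (a value of 0 is drawn at 0.05). RAB11A lies at 1145.11 FPKM or more in every library, to the right of RAB2A, which lies at 136.28 or less, and the points of RAB9A, RAB30 and RAB8B at 46h lie left of those at 0h.

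The 3 comparisons asked how the store of RAB transcripts differed between the stages of maturation. To pass, a gene needed an adjusted p under 0.05 in limma (Benjamini-Hochberg over 7013 genes, two-sided) and a fold change over 1.5 on the log2(FPKM + 1) scale, which understates the changes of low genes. From 0h to 22h, 4 of the 25 tested members rose and 3 fell, against 7.84% and 18.9% of all genes tested. From 22h to 46h 0 rose (0 also at an unadjusted p under 0.05 in limma) and 9 fell, against 9.87% and 32.6%. At 46h against 0h 1 was higher and 10 were lower, against 16.8% and 39.1%. The shares of RAB genes that fell to 46h, 36.0% and 40.0%, were thus near those of all genes. The median log2 fold change of the members was 0.22, -0.36 and -0.45 in these comparisons, beside medians of 0.00, -0.26 and -0.25 over all genes tested. Below the all-gene median lay 9, 16 and 14 of the 25 members. Since 6 of the 25 had a mean under 1 FPKM at some stage and passed the filter through the others, these counts describe the tested members only.

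The scaling of the libraries set the balance of rises and falls. Of all genes tested, 1179 rose between 0h and 46h and 2743 fell as deposited, 1899 rose and 2397 fell with median-of-ratios scaling, and 2877 rose and 1789 fell with quantile normalization. For the RAB genes the counts were 1 and 10, then 3 and 8, then 6 and 5, and the median of the members was -0.45, -0.18 and 0.11, beside all-gene medians of -0.25, 0.00 and 0.37. At 22h against 0h 4 RAB genes were higher and 3 lower under median-of-ratios scaling (8.28% and 18.9% of all genes), and 6 and 3 under quantile normalization (14.9% and 16.1%). At 46h against 22h 2 were higher and 6 lower under median-of-ratios scaling (19.2% and 26.3% of all genes). Under quantile normalization the counts for that interval were 4 and 6 (28.1% and 19.1%). Mitochondrially encoded genes, which held 1.79% to 3.76% of all FPKM in the 0h libraries, 8.06% to 12% in those of 22h and 12.8% to 16.7% in those of 46h, were also left out of the scaling. As TPM, a rescaling to one total in each library, 1 RAB gene was higher and 12 were lower at 46h against 0h with them (14.3% and 41.8% of all genes), and 1 and 10 without them (19.7% and 38.4%).

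**Figure D2:**
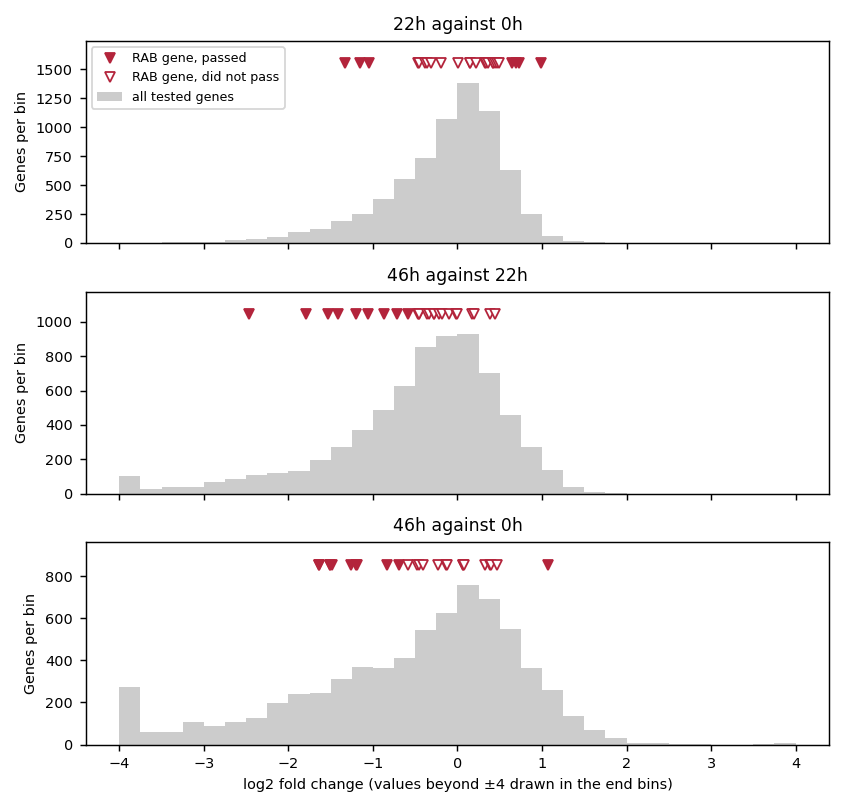
Distribution of the log2 fold change over the 7013 tested genes (grey bars, bins of 0.25) with the 25 tested RAB genes as triangles above, filled where the gene passed both thresholds, in each of the 3 comparisons. The RAB genes spread over the main body of all genes, and all 9 filled triangles of 46h against 22h lie on the side of lower levels.

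By their calls the 25 members fell into a few courses. RAB9A rose and then fell to below its first level, RAB6A rose and fell back, RAB28 and RAB15 rose early, and RAB3C, RAB5C and RAB7A fell to 22h, were not called at 46h against 22h and were lower at 46h against 0h. RAB2B, RAB30, RAB38 and RAB8B fell between 22h and 46h and ended lower than at 0h, whereas RAB10, RAB11A and RAB35 fell between 22h and 46h but were not called against 0h. RAB23 and RAB3B passed only at 46h against 0h, and 9 members passed in no comparison. A gene called in one interval and not in the other is not shown to differ between them, since that difference was not tested.

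**Figure D3:**
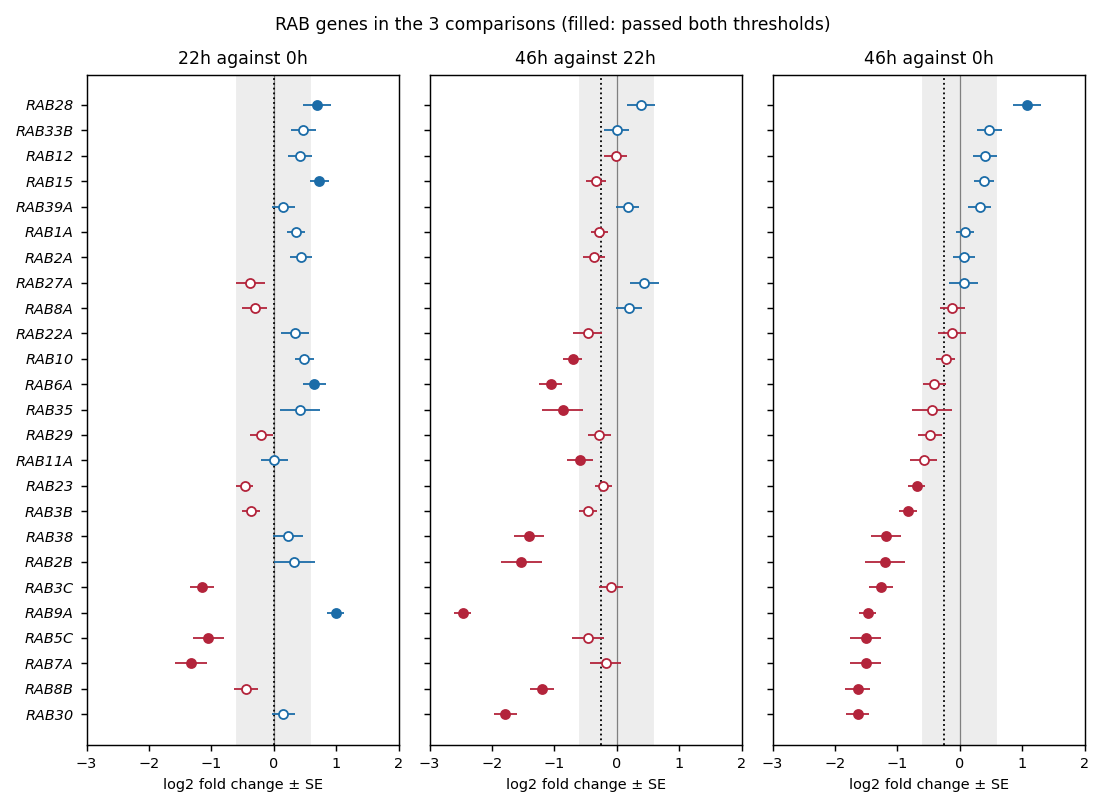
log2 fold change (± SE from limma, 12 libraries) of the 25 tested RAB genes in the 3 comparisons, filled where the gene passed both thresholds, with the grey band marking fold changes under 1.5 and the dotted line the median of all tested genes. The filled points are on both sides at 22h against 0h, all on the left at 46h against 22h, and on the left except for RAB28 at 46h against 0h.

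The RAB genes of the endoplasmic reticulum and Golgi had 10 members in the files, of which 6 were tested. RAB30, a Golgi RAB (chr9:17124181-17222741, minus strand), was at 23.19, 23.04, 20.23 and 20.48 FPKM at 0h, at 21.95, 27.24, 28.01 and 20.27 at 22h, and at 4.66, 8.21, 7.70 and 5.22 at 46h. The 46h libraries lay below all others, and the first 2 stages overlapped. It fell by 1.79 (SE 0.184, adjusted p = 2.16e-06 by limma) between 22h and 46h and by 1.64 (SE 0.184, adjusted p = 2.62e-06) against 0h on the log2 scale, a 3.11-fold lower level.

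RAB2B, which acts in transport between the endoplasmic reticulum and the Golgi (chr7:77698907-77717211, plus strand), was at 42.13, 47.60, 30.39 and 14.78 FPKM at 0h, where 0h replicate 4 gave the lowest value. It was at 22.85, 40.38, 45.37 and 55.58 at 22h, and at 11.62, 12.63, 11.95 and 15.63 at 46h. The 46h libraries lay below those of 22h, and the highest of them lay above the lowest 0h library. RAB2B fell by 1.53 (SE 0.325, adjusted p = 0.00143 by limma) between 22h and 46h, and by 1.20 (adjusted p = 0.005) against 0h, or by 1.54 (adjusted p = 0.000139) without 0h replicate 4. With quantile normalization the value against 0h was -0.57 (adjusted p = 0.155). Its close relative RAB2A held 81.2 ± 8.19 FPKM at 0h, 112 ± 25.5 at 22h and 85.1 ± 2.77 at 46h (SD, n = 4) and passed in no comparison. As a share of the pair, RAB2A made up 63.6% to 82.4% at 0h, between 71.0% and 77.4% at 22h, and between 84.7% and 87.6% at 46h.

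RAB6A, which serves retrograde traffic through the Golgi (chr9:8137901-8199212, minus strand), was at 86.56, 76.99, 68.81 and 56.00 FPKM at 0h, at 112.32, 118.93, 105.72 and 111.11 at 22h, and at 63.27, 37.77, 59.13 and 56.82 at 46h. All 22h libraries were above all others, while 0h and 46h overlapped. The rise to 22h was 0.65 on the log2 scale (SE 0.185, adjusted p = 0.0168 by limma), and the fall to 46h was -1.06 (SE 0.185, adjusted p = 0.000314). Without 0h replicate 4 the rise was 0.53 (adjusted p = 0.0327), under the fold change of 1.5. RAB6B, its relative, stayed at or under 1.30 FPKM in every library and gave 0.205% to 2.27% of the pair.

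RAB1A, which governs the step from the endoplasmic reticulum to the Golgi (chr3:76837673-76868156, plus strand), was at 63.4 ± 7.81 FPKM at 0h, 81.5 ± 3.77 at 22h and 67.1 ± 5.37 at 46h (SD, n = 4). It passed in no comparison, although its 22h libraries did not overlap those of 0h (adjusted p = 0.0646 by limma, 1.29-fold). RAB33B, a Golgi RAB that also takes part in autophagy, was at 1.91 ± 0.316, 3.09 ± 0.909 and 3.05 ± 0.801 FPKM and did not pass with all 12 libraries. It was called higher at 22h against 0h without 22h replicate 3, and at 46h against 0h without 46h replicate 2 (values below). Of the untested members of this compartment, RAB33A and RAB43 had means of 0.107 and 0.085 FPKM, and RAB19 was listed at 0 throughout.

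In the early endosome, where RAB5 proteins drive the fusion of incoming vesicles, 2 of 6 members were tested. RAB5C (chr12:20613991-20635952, plus strand) was at 2.07, 1.1, 1.98 and 4.54 FPKM at 0h, the highest from 0h replicate 4. It was at 0.56, 0.21, 1.11 and 0.45 at 22h, and at 0.28, 0.07, 0.12 and 0.06 at 46h. The 46h libraries lay below all of 0h, and the 22h libraries overlapped both other stages. It fell by 1.05 (SE 0.251, adjusted p = 0.00606 by limma) to 22h and by 1.51 (SE 0.251, adjusted p = 0.000115) to 46h on the log2 scale, and by 0.79 and 1.25 without 0h replicate 4. RAB5C passed the filter only through its 0h libraries, where it is high, so these tests are no independent sign of a fall, and it was also called with no filter (adjusted p = 0.0223 and 0.000765). RAB5A was under the filter, at 0.742 ± 0.229 FPKM at 0h, 0.883 ± 0.110 at 22h and 0.955 ± 0.328 at 46h (SD, n = 4). The share of RAB5A in the sum of RAB5A and RAB5C lay between 18.3% and 29.5% at 0h, between 46.4% and 81.4% at 22h and between 80.1% and 92.9% at 46h, so the ranges did not overlap between 0h and the later stages. RAB22A, which sorts cargo in early endosomes, was at 1.95 ± 1.08, 2.57 ± 0.414 and 1.59 ± 0.409 FPKM and did not pass, with a log2 fold change to 22h of 0.34, or 0.55 without 0h replicate 4. RAB31 averaged 0.869 FPKM, just under the filter, and RAB17 and RAB20 were listed at 0.

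**Figure D4:**
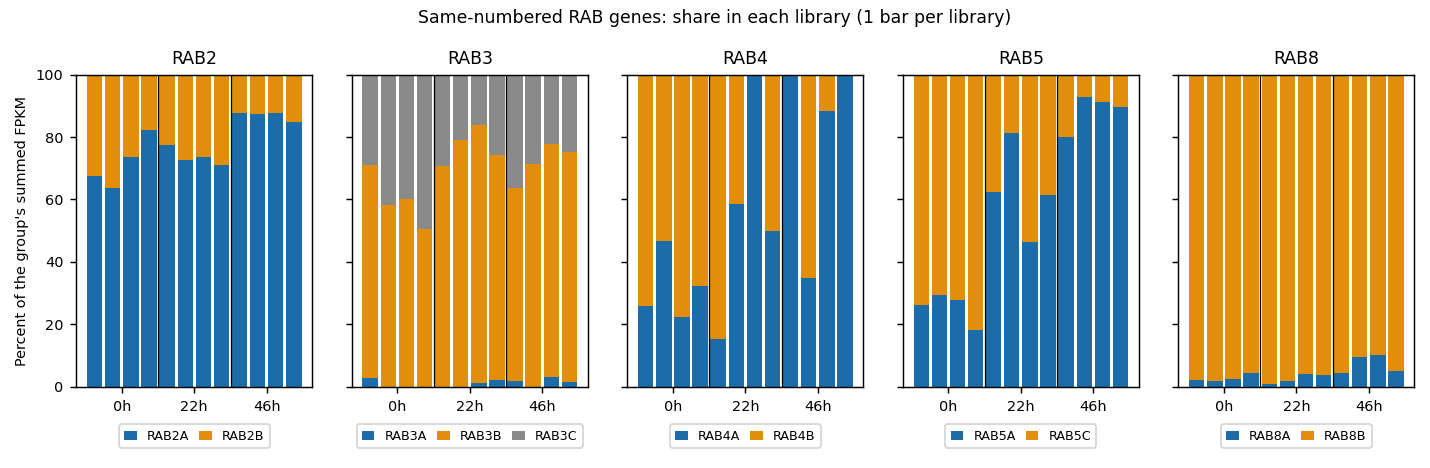
Percent of the summed FPKM of same-numbered RAB genes that each member gave, with 1 bar per library and 4 libraries per stage, for the RAB2, RAB3, RAB4, RAB5 and RAB8 genes. RAB5A gave under 30% in every 0h library and over 80% in every 46h library, and RAB8B gave at least 89.9% of RAB8 throughout.

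Of the 9 members that recycle cargo to the plasma membrane, 3 were tested. RAB11A (chr1:163858254-163887741, plus strand) was at 2441.36, 2412.58, 1858.87 and 1161.93 FPKM at 0h, at 1694.14, 1902.93, 1984.63 and 2064.12 at 22h, and at 1189.03, 1145.11, 1358.28 and 1378.66 at 46h. All 0h libraries but replicate 4 were above all of 46h, that library lay among the 46h values, and 22h did not overlap 46h. Between 22h and 46h RAB11A fell by 0.59 (SE 0.213, adjusted p = 0.0324 by limma, 1.51-fold), just past both thresholds. This call was lost when any 1 of 5 libraries was left out (22h replicates 2, 3 and 4 and 46h replicates 1 and 2, adjusted p of 0.0575 to 0.0813), and with no filter on low values (adjusted p = 0.0905). The value was -0.27 under median-of-ratios scaling and -0.44 under quantile normalization, neither of them called. At 46h against 0h the log2 fold change was -0.58 (adjusted p = 0.0282), under the fold change of 1.5, and without 0h replicate 4 it was -0.81 (adjusted p = 0.000281). RAB11B, its relative, did not exceed 0.77 FPKM in any library.

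RAB35, which acts in fast recycling from the endosome, was at 4.53 ± 3.05 FPKM at 0h, 5.71 ± 1.60 at 22h and 2.64 ± 0.666 at 46h (SD, n = 4). The 0h values ran from 1.54 to 8.62, the highest from 0h replicate 4, and without that library RAB35 rose to 22h (log2 0.74, adjusted p = 0.0439 by limma, against 0.42 and 0.349 with it). Without 0h replicate 2 it was called lower at 46h against 0h (log2 -0.77, adjusted p = 0.0265, against -0.45 and 0.239 with it). It fell by 0.87 (SE 0.324, adjusted p = 0.0383 by limma) between 22h and 46h, and this call was lost without any 1 of 6 libraries of those 2 stages (adjusted p of 0.0524 to 0.108), with no filter on low values (adjusted p = 0.111), and for RAB35 under median-of-ratios scaling (log2 -0.62) and quantile normalization (log2 -0.35). RAB15, which acts at early and recycling endosomes (chr7:89015041-89039482, minus strand), was at 0.58, 0.36, 0.68 and 1.18 FPKM at 0h, at 1.74, 1.63, 2.17 and 1.58 at 22h and at 1.32, 1.25, 1.21 and 0.98 at 46h. Its 22h libraries were above all others, and it rose by 0.73 on the log2 scale to 22h (SE 0.159, adjusted p = 0.00358 by limma). RAB15 would be under the filter without its 22h libraries, where it is high, so this test is no independent sign of a rise, and with no filter its adjusted p was 0.0112. Of the members under the filter, RAB4B was at 1.11, 0.66, 1.79 and 3.46 FPKM at 0h and at 0.00, 0.13, 0.11 and 0.00 at 46h, groups that did not overlap (exact permutation test, two-sided p = 0.0286, the smallest that 70 arrangements can give). Of the 60 such comparisons of members under the filter 2 reached this p, the other being RAB6B at 46h against 22h. These p-values were not adjusted for the 60 comparisons, among which a p this small can arise by chance. RAB4A, RAB13 and RAB25 averaged 0.606, 0.32 and 0.0583 FPKM. RAB14, which most cells use, was listed at 0 in all libraries.

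In the late endosome and lysosome group 6 of 11 members were tested, of which RAB7A, RAB9A and RAB38 passed in some comparison and RAB12, RAB29 and RAB39A in none. RAB7A, which brings late endosomes to the lysosome (chr13:71777422-71886758, minus strand), was at 42.97, 40.47, 62.59 and 54.60 FPKM at 0h, at 19.20, 14.52, 25.81 and 18.40 at 22h and at 11.49, 13.10, 26.12 and 19.66 at 46h. All 0h libraries were above all later ones, and 22h and 46h overlapped. It fell by 1.33 to 22h (SE 0.251, adjusted p = 0.00135 by limma) and by 1.51 to 46h (SE 0.251, adjusted p = 0.000116), a 2.84-fold lower level, whereas the log2 fold change of 46h against 22h was -0.18 (adjusted p = 0.578).

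RAB9A, which returns receptors from late endosomes to the trans-Golgi network (chrX:10328085-10349399, plus strand), was at 20.50, 20.26, 16.96 and 20.76 FPKM at 0h, at 36.72, 37.75, 39.94 and 45.90 at 22h, and at 6.45, 6.22, 6.78 and 6.03 at 46h. The 3 stages did not overlap. It rose 1.99-fold to 22h (log2 0.99, SE 0.138, adjusted p = 0.000142 by limma), then fell 5.56-fold to 46h (log2 -2.47, SE 0.138, adjusted p = 4.03e-09), and ended 2.79-fold below 0h (log2 -1.48, adjusted p = 3.67e-07). It was the only member called in all 3 comparisons, and its fall to 46h was the largest log2 fold change of any tested RAB gene on the log2(FPKM + 1) scale, which compresses low members such as RAB5C and RAB38. RAB9B, its relative, did not exceed 0.08 FPKM in any library.

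RAB38, known for the biogenesis of melanosomes and related organelles (chr9:21577083-21640637, minus strand), was at 2.32, 2.13, 1.32 and 1.36 FPKM at 0h, at 0.94, 2.20, 3.70 and 2.54 at 22h and at 0.41, 0.00, 0.35 and 0.09 at 46h. The 46h libraries lay below all others. It fell by 1.41 between 22h and 46h (SE 0.241, adjusted p = 0.000251 by limma) and by 1.19 against 0h (SE 0.241, adjusted p = 0.000579), although the latter was -0.46 (adjusted p = 0.128) with quantile normalization. RAB38 would be under the filter without its 22h libraries, where it is high, so these tests are no independent sign of a fall, and with no filter the adjusted p was 0.00185 and 0.00309. RAB29, a RAB that binds the kinase LRRK2, held 17.6 ± 1.56, 15.3 ± 3.14 and 12.5 ± 3.05 FPKM, and RAB12 0.917 ± 0.468, 1.51 ± 0.374 and 1.47 ± 0.132 (SD, n = 4). Neither passed, and neither did RAB39A, at 0.893 ± 0.235, 1.14 ± 0.558 and 1.37 ± 0.328 FPKM. RAB7B was listed at 0, and RAB34, RAB39B and RAB42 averaged at most 0.04 FPKM.

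**Figure D5:**
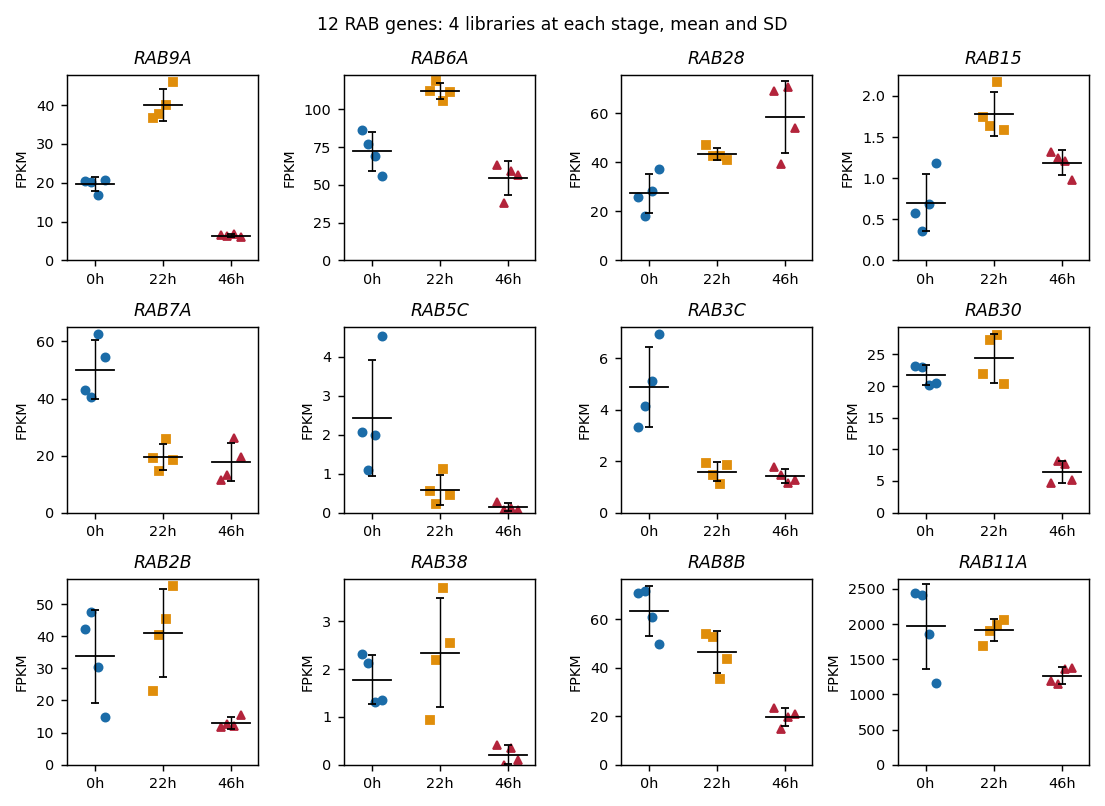
FPKM of 12 RAB genes by stage, with 1 point per library, the mean as a line and the SD as a bar (n = 4). RAB9A is separate at each stage with its peak at 22h, RAB7A and RAB3C are high at 0h only, RAB30 and RAB8B are low at 46h only, and the 4 points of RAB11A at 0h span 1161.93 to 2441.36.

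The 12 members of regulated and polarized exocytosis, 6 of them tested, include the RAB3 and RAB27 genes linked to secretory granules. RAB8B, which acts in polarized delivery to the plasma membrane (chr1:108772851-108840222, minus strand), was at 70.95, 71.70, 60.69 and 49.73 FPKM at 0h, at 53.76, 52.56, 35.16 and 43.64 at 22h, and at 23.53, 14.70, 19.50 and 20.79 at 46h. The 46h libraries lay below all others. It fell by 1.20 between 22h and 46h (SE 0.193, adjusted p = 0.000157 by limma) and by 1.64 against 0h (SE 0.193, adjusted p = 4.16e-06), a 3.12-fold lower level. RAB8A, its relative, held 1.68 ± 0.428, 1.20 ± 0.522 and 1.48 ± 0.522 FPKM (SD, n = 4) and did not pass. Its share of the pair was 1.78% to 4.40% at 0h and 4.43% to 10.1% at 46h.

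RAB3C, a RAB of secretory vesicles (chr16:37411931-37729583, plus strand), was at 3.33, 4.13, 5.11 and 6.94 FPKM at 0h, at 1.94, 1.48, 1.1 and 1.87 at 22h and at 1.77, 1.47, 1.14 and 1.26 at 46h. All 0h libraries were above all later ones, with the highest value in 0h replicate 4. It fell by 1.15 to 22h (SE 0.193, adjusted p = 0.000567 by limma) and by 1.26 to 46h (SE 0.193, adjusted p = 5.44e-05). With quantile normalization the latter was -0.58 (adjusted p = 0.00991), under the fold change of 1.5. RAB3B was at 7.12 ± 0.976, 5.29 ± 0.468 and 3.56 ± 0.379 FPKM (SD, n = 4), and its level at 46h was 1.78-fold below that at 0h (adjusted p = 0.000173 by limma). That call was lost under median-of-ratios scaling (log2 -0.56) and quantile normalization (log2 -0.14). RAB3A did not exceed 0.33 FPKM in any library and RAB3D was listed at 0.

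RAB10, which serves exocytosis from the Golgi and recycling compartments (chr3:112842190-112924188, minus strand), was at 58.17, 41.95, 55.43 and 47.33 FPKM at 0h, at 72.24, 74.81, 65.20 and 71.62 at 22h and at 50.98, 38.24, 44.16 and 39.02 at 46h. Its 22h libraries were above all others, and the fall from 22h to 46h was -0.71 on the log2 scale (SE 0.155, adjusted p = 0.00171 by limma), or -0.40 (adjusted p = 0.061) under median-of-ratios scaling and -0.36 (adjusted p = 0.0591) under quantile normalization. The rise to 22h, 1.40-fold (adjusted p = 0.0278), was under the fold change required. RAB27A, which docks secretory granules at the plasma membrane, was at 32.5 ± 10.4, 24.1 ± 5.27 and 32.7 ± 3.73 FPKM (SD, n = 4) and did not pass. Without 0h replicate 4, whose 19.41 FPKM was the lowest of its stage, RAB27A was lower at 22h against 0h (log2 -0.60, adjusted p = 0.0268). RAB27B averaged 0.21 FPKM, and RAB26, RAB37 and RAB44 at most 0.0275.

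Of the 3 remaining members 2 were tested. RAB28, known from photoreceptor cilia (chr8:8870795-9125253, minus strand), was at 25.68, 17.99, 28.43 and 37.34 FPKM at 0h, at 47.06, 42.66, 42.70 and 40.86 at 22h, and at 68.95, 39.29, 70.72 and 54.04 at 46h. All later libraries were above all of 0h, and 22h and 46h overlapped. RAB28 was the one RAB gene higher at 46h against 0h, by 1.07 on the log2 scale (SE 0.225, adjusted p = 0.000806 by limma, 2.10-fold), and 1.23 without 0h replicate 4. Its rise to 22h of 0.69 (SE 0.225, adjusted p = 0.0313) was not called with no filter on low values (adjusted p = 0.0652), nor when any 1 of 7 of the 8 libraries of those stages, all but 0h replicate 4, was left out (adjusted p of 0.0536 to 0.0929). RAB23, a regulator of Hedgehog signalling, was at 1.67 ± 0.251, 0.930 ± 0.181 and 0.657 ± 0.134 FPKM (SD, n = 4). It was 1.61-fold lower at 46h against 0h (log2 -0.69, adjusted p = 0.000548 by limma), a call lost under median-of-ratios scaling (log2 -0.53, under the fold change of 1.5) and a direction that turned to 0.02 with quantile normalization. RAB23 too passed the filter only through its 0h libraries, and with no filter its adjusted p was 0.00149. RAB40C, an adaptor of ubiquitin ligases, averaged 0.132 FPKM.

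The genes that load, unload and read RAB proteins were taken from lists of known regulators. Over all genes tested, 16.8% were higher and 39.1% lower at 46h against 0h, with a median log2 fold change of -0.25. Of 8 genes for prenylation and GDP dissociation 4 were tested, and 1 was lower at 46h against 0h. This was RABAC1, an acceptor of prenylated RAB proteins, which was at 12.1 ± 1.45 FPKM at 0h, 9.05 at 22h and 0.547 ± 0.261 at 46h (SD, n = 4) and fell by 3.09 on the log2 scale (SE 0.185, adjusted p = 4.06e-09 by limma). GDI2, a GDP dissociation inhibitor, was at 69.1, 72.6 and 52.0 FPKM and did not pass.

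Of 21 tested exchange factors 5 were higher and 5 lower at 46h against 0h, with a median log2 fold change of -0.29, beside 16.8% higher and 39.1% lower over all genes. Among those higher, HPS4 (means of 0.83, 1.0 and 1.79 FPKM at 0h, 22h and 46h) passed the filter only through its 46h libraries, where it is high. Its test is therefore no independent sign of a rise. CCZ1, a subunit of the exchange factor for RAB7, was at 30.7 ± 2.57 FPKM at 0h and 101 ± 12.4 at 46h (log2 1.68, SE 0.167, adjusted p = 7.28e-07 by limma), and C9orf72 at 4.76 ± 1.11 and 11.9 ± 3.32 (log2 1.15, adjusted p = 0.000448). For CCZ1 this is the level of 1 subunit only. MON1B, on the same list, was at 4.32 ± 1.79 and 2.9 ± 0.652 FPKM and did not pass (log2 -0.4, adjusted p = 0.137 by limma). MON1A, under the filter, was at 2.07 ± 0.708 and 0.0225 ± 0.045. DENND2C, of the DENN family that acts on RAB9, was at 207 ± 15.7 and 5.62 ± 1.59 FPKM (log2 -5.0, SE 0.205, adjusted p = 1.23e-10), and RAB3IP, an exchange factor for RAB8, at 239 ± 20.6 and 30.8 ± 7.04 (log2 -2.94, adjusted p = 2.35e-09; SD, n = 4).

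Of 15 tested GTPase-activating proteins 4 were higher and 5 lower at 46h against 0h, with a median of 0.09 on the log2 scale (-0.25 over all genes, of which 16.8% were higher and 39.1% lower). Among those lower, TBC1D24 (means of 1.6, 1.79 and 0.31 FPKM at 0h, 22h and 46h) would be under the filter without its 22h libraries, where it is high. Its test is therefore no independent sign of a fall, and with quantile normalization its value was -0.13 and not called. TBC1D15, which acts on RAB7, was at 23.8 ± 1.18 FPKM at 0h and 54.1 ± 7.83 at 46h (log2 1.14, SE 0.146, adjusted p = 9.52e-06 by limma), and TBC1D5 at 1.85 ± 0.696 and 4.42 ± 0.996 (log2 0.94, adjusted p = 0.00254). TBC1D7 was at 16.1 ± 4.75 and 2.69 ± 0.536 FPKM (log2 -2.18, adjusted p = 3.45e-07), and TBC1D1 at 7.12 ± 5.01 and 1.14 ± 0.25 (log2 -1.75, adjusted p = 0.000247; SD, n = 4).

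Of 26 tested effectors 4 (15.4%) were higher and 5 (19.2%) lower at 46h against 0h, beside 16.8% and 39.1% of all genes, and their median was 0.18. RAB11FIP2, a RAB11 effector, was at 1.02 ± 0.329 FPKM at 0h and 3.25 ± 0.807 at 46h (log2 1.07, SE 0.191, adjusted p = 0.000211 by limma), and RIMS2, a RAB3 effector, at 142 ± 34.1 and 278 ± 17.0 (log2 0.99, adjusted p = 0.000285). MYO5A and MYO5B, myosin V motors recruited by RAB27 and RAB11 among others, fell from 214 ± 35.5 to 10.3 ± 1.29 FPKM (log2 -4.25, SE 0.158, adjusted p = 5.15e-11) and from 12.8 ± 1.28 to 2.60 ± 0.234 (log2 -1.93, adjusted p = 1.31e-07; SD, n = 4). MYO5C, of the same class, was at 4.88 ± 1.88 FPKM at 0h and 4.54 ± 0.228 at 46h and did not pass (log2 -0.04, adjusted p = 0.898 by limma). All 13 regulator and effector genes named above as higher or lower, HPS4 and TBC1D24 aside, kept their call and direction under each of the 4 scalings and without 0h replicate 4. The list counts did not: with quantile normalization 8 exchange factors, 8 GTPase-activating proteins and 19 effectors were higher and 3, 2 and 4 lower, beside 41.0% higher and 25.5% lower over all genes under that scaling.

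For the transcript ends, 3 of the 10 members lower at 46h against 0h (RAB9A, RAB8B and RAB3C) had the cytoplasmic polyadenylation element in the last 100 bases. RAB28, the one member higher, had none, and among those not called 3 of 12 (RAB2A, RAB6A and RAB29) had it. Over all tested genes with a searchable end, the element stood in 31.0% of those higher and in 16.5% of those lower at 46h.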

How the data were processed

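The deposited files hold 1 FPKM value per Ensembl gene identifier and library. The authors made them with STAR alignment to Sscrofa11 and RSEM after trimming with Trim Galore. Identifiers were named from the RefSeq gene table (Sscrofa11.1). Positions and sequences are RefSeq's on that build, read with pysam 0.24.0. The files themselves carry no coordinates. One identifier that a supplementary table of the study names RAB40B is WDR45B in the RefSeq table and was left out. The transcript with a 3′ UTR of at least 100 bases and the longest coding sequence was used for each gene that had one. Genes without such a transcript, RAB11A and RAB1A among them, were read for coding sequence only.

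The 7013 genes that averaged 1 FPKM or more across 12 libraries were fitted as log2(FPKM + 1) with limma 3.58.1 in R 4.3.3 (lmFit, eBayes with trend, stage only), with Benjamini-Hochberg adjustment over all of them. The test of the study itself used counts, which were not used here. A gene passed at an adjusted p under 0.05 and a fold change over 1.5. Where a test is given for a lower gene, it is an exact two-sided permutation test of 4 against 4 libraries. Depth is unknown, so the spread over 4 libraries is the measure of precision.

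Members and lists were chosen with earlier results of these data known. Named genes were the 5 largest rises and 5 largest falls past both thresholds in each comparison, the 5 most abundant members, and the 2 largest rises and 2 largest falls of each regulator list at 46h against 0h. Other members are given by stage means and call. The leukocyte and red cell list (PTPRC, CD14, CD68 and HBB) summed to at most 0.19 FPKM in any library. Alternatives were another pseudocount, other filters, scalings, variance priors and thresholds, a replicate block and each library left out.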

Additional observations from a re-analysis of the deposited data

Results flagged for a closer look

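In 5 of 75 groups of 4 libraries (25 tested members at 3 stages), 1 library lay far from the other 3 by Dixon's ratio of gap to range (at the 95% critical value), and chance gives about 1 in 20 such groups. RAB1A in 22h replicate 3 was at 75.83 FPKM, below the 83.02 to 83.72 of the others. RAB9A in 0h replicate 3 was at 16.96 FPKM, below 20.26 to 20.76. RAB3B in 46h replicate 1 was at 3.0 FPKM, below 3.67 to 3.80. RAB33B in 22h replicate 3 was at 1.74 FPKM, below 3.39 to 3.70, and without that library RAB33B rose to 22h (log2 0.65, adjusted p = 0.0166 by limma). RAB39A in 22h replicate 1 was at 1.97 FPKM, above 0.78 to 0.92. None of these libraries was 0h replicate 4.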

How the results depend on the processing

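The count of RAB genes higher at 46h against 22h, 0 as reported, was 2 under median-of-ratios scaling and 4 under quantile normalization, while the count lower went from 9 to 6 under both (all genes 19.2% higher and 26.3% lower, then 28.1% and 19.1%, against 9.87% and 32.6% as reported) and the median of the members from -0.36 to -0.15 and 0.05. The count higher at 46h against 0h, 1 as reported (16.8% of all genes), was 2 with a pseudocount of 0.1 and 2 with the adjusted p alone. It was 3 under median-of-ratios scaling and 6 under quantile normalization (27.1% and 41.0% of all genes). The count lower at 46h against 0h, 10 as reported (39.1% of all genes), was 5 with quantile normalization (25.5% of all genes) and 6 with a mean of at least 5 FPKM. The count lower at 22h against 0h, 3 as reported, was 1 with a mean of at least 5 FPKM. That filter leaves out 11 of the 25 tested members, and all 42 results left under it kept their call. RAB23 at 46h against 0h turned to 0.02 with quantile normalization. The causes of the shifts under other scalings were not tested. With each library left out in turn, the counts ran from 3 to 4 higher and 3 to 4 lower at 22h against 0h, 0 higher and 7 to 9 lower at 46h against 22h, and 1 to 2 higher and 10 to 12 lower at 46h against 0h. The second gene higher came without 46h replicate 2 (RAB33B, log2 0.59). No share of all genes is given with the other pseudocount, threshold or filter, or with left-out libraries. Those counts describe the members only.

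The replicate numbers did not pair the libraries: of 12 same-numbered pairs 3 had deviations from the stage means that correlated above 0.1 (range -0.466 to 0.381, other pairs -0.428 to 0.532). With a replicate block the counts were 4 higher and 3 lower at 22h against 0h, 0 and 8 at 46h against 22h, and 1 and 10 at 46h against 0h, and RAB11A at 46h against 22h was not called (-0.59, adjusted p = 0.0625 by limma). The share of all genes in the blocked fit is not given, so these counts too describe the members only. Without read counts, the precision of members under 1 FPKM is limited by an unknown depth.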
